A study of Mus musculus with 4 samples.

Results

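The genes followed here are 50 markers of cell proliferation in Swiss 3T3 fibroblasts, a mouse embryo-derived fibroblast line. Of the 50, 18 act in DNA replication during S phase, 5 are the D and E cyclins of G1 and 27 act in G2 and mitosis. They were taken by symbol from the 29653 genes named on the array, and each gene was read by the brightest of its non-control probes on average. The list was set by role, with earlier results of these data already known.

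Fibroblasts with an intact receptor gene, labelled Lpar1+/+ and called WT below, were set against Lpar1-/- fibroblasts, called KO. Lpar1 encodes a receptor for lysophosphatidic acid. The KO cells came from single-cell cloning after transfection of Cas9 with a guide RNA aimed next to exon 3 of Lpar1, so both KO groups stand for 1 clone. Each genotype was sampled at 0 h and at 24 h of coculture, which gave 4 groups. The mast cells in the cocultures were WT, had been grown from mouse bone marrow with IL-3, and were placed on the fibroblast layer with 100 ng/ml SCF (stem cell factor, the ligand of Kit). What the 0 h samples contained is not stated in the labels; the study's design text allows for fibroblasts with mast cells and without. After coculture the fibroblasts were separated by trypsin and reseeding or with beads against CD117, the Kit protein. Every array received RNA pooled from 3 samples. A group is 1 array, and without replicates neither a test nor a p-value can be given.

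Cells that enter the cycle load the Mcm helicase on replication origins in G1, fire those origins in S phase, and then build the spindle and the kinases of mitosis. D and E cyclins drive the phosphorylation of the retinoblastoma protein, which frees E2F factors to switch on the replication genes. Later in the cycle the MuvB complex, with B-Myb (the product of Mybl2) and Foxm1, switches on the mitotic genes. Their promoters often carry a CHR element (cell cycle genes homology region) downstream of CCAAT boxes, where the factor NF-Y binds. The mRNAs of both classes are low in resting fibroblasts and rise when serum or growth factors bring the cells back into the cycle.

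The promoters of the replication and mitosis genes differ in the letters of known cell cycle elements, and 4 of each class are printed to show it. The windows come from RefSeq (GRCm38.p6), run 5′ to 3′ in the direction of transcription, and hold the 150 bases before the annotated start. Capitals mark the letters searched on both strands. The CHR element was searched as TTTGAA and reads TTCAAA where it lies on the other strand. The CCAAT box reads ATTGG there. E2F sites were searched under 2 spellings. TTTCCCGC is the first and reads GCGGGAAA on the other strand. TTTGGCGC is the other and reads GCGCCAAA. No match of 1 element overlapped a match of another. The first 4 are replication genes and the last 4 are mitosis genes.
Mcm5 (chr8:75109359-75109508, plus strand): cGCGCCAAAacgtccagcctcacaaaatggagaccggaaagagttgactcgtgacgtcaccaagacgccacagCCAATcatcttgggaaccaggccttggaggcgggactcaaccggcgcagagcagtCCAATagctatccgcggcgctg
Mcm6 (chr1:128359706-128359855, minus strand): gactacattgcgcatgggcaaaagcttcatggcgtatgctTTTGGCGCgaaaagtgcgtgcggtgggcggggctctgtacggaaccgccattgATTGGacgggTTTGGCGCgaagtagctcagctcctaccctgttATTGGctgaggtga
Cdc6 (chr11:98908001-98908150, plus strand): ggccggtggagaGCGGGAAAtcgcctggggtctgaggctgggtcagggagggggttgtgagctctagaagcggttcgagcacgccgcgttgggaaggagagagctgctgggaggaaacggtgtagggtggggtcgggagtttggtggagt
Mcm2 (chr6:88898781-88898930, minus strand): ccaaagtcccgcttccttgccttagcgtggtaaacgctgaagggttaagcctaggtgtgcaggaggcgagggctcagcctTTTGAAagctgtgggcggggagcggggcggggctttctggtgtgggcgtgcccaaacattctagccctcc
Cdc20 (chr4:118437344-118437493, minus strand): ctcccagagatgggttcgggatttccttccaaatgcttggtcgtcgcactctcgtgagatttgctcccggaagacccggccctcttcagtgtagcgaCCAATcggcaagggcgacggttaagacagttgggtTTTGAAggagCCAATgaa
Ube2c (chr2:164769779-164769928, plus strand): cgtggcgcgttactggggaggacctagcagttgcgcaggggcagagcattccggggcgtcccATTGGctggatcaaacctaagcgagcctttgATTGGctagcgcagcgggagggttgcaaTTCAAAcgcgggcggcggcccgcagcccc
Cdk1 (chr10:69352913-69353062, minus strand): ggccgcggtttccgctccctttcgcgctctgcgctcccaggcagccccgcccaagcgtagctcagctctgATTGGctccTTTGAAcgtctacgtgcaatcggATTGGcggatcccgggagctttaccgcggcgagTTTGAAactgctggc
Ccnb2 (chr9:70421555-70421704, minus strand): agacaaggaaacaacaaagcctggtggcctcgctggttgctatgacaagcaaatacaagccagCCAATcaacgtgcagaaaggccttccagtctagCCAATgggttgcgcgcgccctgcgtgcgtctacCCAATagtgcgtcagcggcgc

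The printed Mcm5, Mcm6 and Cdc6 windows hold E2F letters and no CHR letters. Mcm2, also a replication gene, has CHR letters 70 bases before its start and no E2F letters. Cdc20, Ube2c and Cdk1 hold CHR letters 18, 29 and 15 bases before the start, each with CCAAT letters upstream of them. Cdk1 has a further CHR match at 71 bases. Ccnb2 has 3 CCAAT boxes, at 87, 54 and 21 bases, and its CHR letters lie outside the printed stretch, 167 bases before the start and within the transcribed part.

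Over the full windows of 250 bases before to 50 after the start, 40 of the 50 genes were matched. CHR letters stood in 16 of 22 mitosis genes (72.7%) and in 2 of 16 replication genes (12.5%), against 20.2% of 27025 mouse genes with a window. The CCAAT box was found in 20 of 22 mitosis genes (90.9%) and 9 of 16 replication genes (56.2%), against 41.1% of all. An E2F site of either spelling was found in 6 of 16 replication genes (37.5%), namely Cdc6, Cdt1, Mcm3, Mcm5, Mcm6 and Mcm7. No mitosis gene held one, and 1.80% of all genes did. A match describes the letters of the window, not binding, and a missing match says nothing of the factor.

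**Figure D1:**
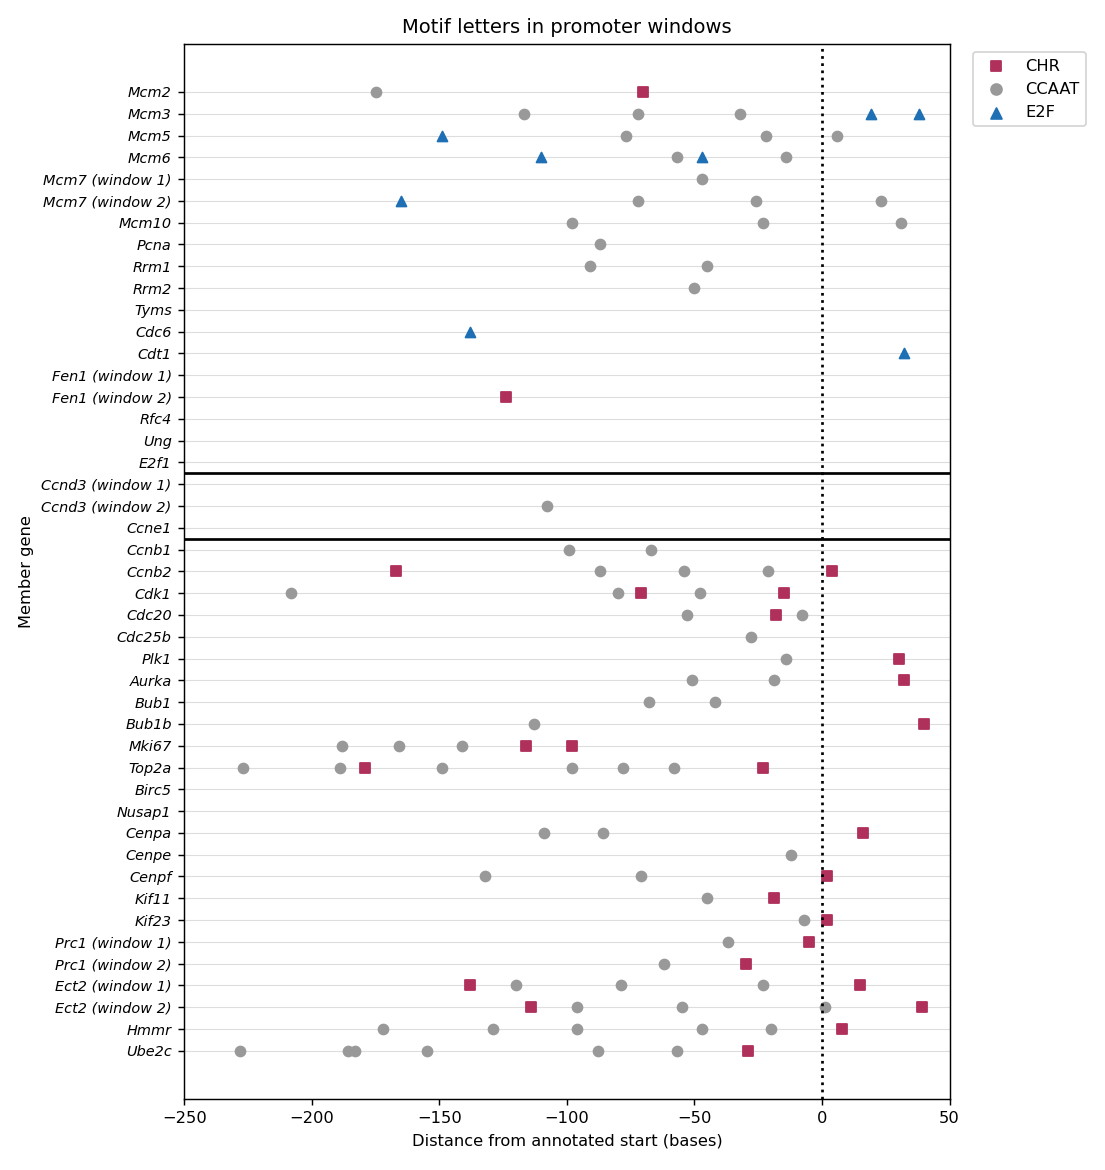
Positions of the searched letters in the promoter windows of the matched members, with the distance in bases from the annotated start on the x axis and 1 row for each window. CHR matches stand in 16 of the 22 mitosis genes and in 2 of the 16 replication genes, and E2F matches stand in 6 replication genes.

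Each value below is a normalized log2 signal: the processed signal of the probe on the log2 scale minus the 75th percentile of that array, so 0 is the array's own 75th percentile. A difference is given as KO minus WT or as 24 h minus 0 h, and its standard error (SE) comes from the scanner software's spot error. That SE was 0.20 for nearly every member and covers neither culture nor labelling. Below, "called" marks a gene whose 2 readings were 2-fold or more apart; the call is about these arrays and has no error for the conditions. On all 4 arrays 48 of the 50 genes were well above background, and none was saturated. Ccne2, an E cyclin, and Aurkb, the kinase of the chromosomal passenger complex, were well above background on none of the arrays, and have no measured difference here. Ccne2 lay between -8.86 and -8.11 and Aurkb between -9.07 and -7.67.

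The 4 arrays differed in mast cell signal. On both 0 h arrays all 20 markers of mast cells passed background, with a median level of 4.55 in WT and 5.31 in KO. At 24 h, 17 and 16 of them did, with medians of -4.22 and -3.96. The log2 of their summed level was 9.19 and 9.70 at 0 h in WT and KO, and 6.31 and 6.64 at 24 h. Most of the 24 h sum is Cd63, a lysosomal membrane protein that other cells also make, which read 6.16 and 6.13 at 0 h and 6.28 and 6.37 at 24 h. In KO at 24 h Il1rl1, the IL-33 receptor, also read 3.86. The median change of the measured markers, -8.14 in WT and -8.57 in KO, is far larger than that of the sum. Kit itself read 4.45 and 5.37 at 0 h, -6.14 in WT and -5.40 in KO at 24 h. The 18 pan-leukocyte markers had medians of 1.97 and 3.18 at 0 h in WT and KO, and -4.47 and -4.59 at 24 h. Not all were lower at 24 h: Arhgdib changed by -0.04 in WT and -0.58 in KO, and Itgb2 by 0.03 and -1.15. Fibroblast markers were present throughout, 18 or 19 of 20 on each array, with medians of 2.57, 1.83, 2.85 and 2.75. One of them, Thy1, a surface protein, read -7.02 and -7.41 in WT but 3.73 and 4.12 in KO. The Lpar1 probe read -3.20, -3.43, -3.15 and -3.61, differences of -0.22 and -0.46 between genotypes. Its place relative to the edit was not examined here, so it checks nothing about the labels. In such bulk samples fewer cells of a type and less RNA per cell cannot be told apart, and the part of mast cell RNA in the differences below was not tested.

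Scaling decides the direction of many differences below. Setting each array to the level of its fibroblast markers in place of its 75th percentile adds 1.28 to every KO minus WT difference at 0 h and 0.40 at 24 h. To every change with time it adds -0.23 in WT and -1.11 in KO, and to the difference of changes -0.89. Under it 35 of 48 members changed sign at 0 h, 8 at 24 h, 22 over time in WT and 42 over time in KO. Quantile normalization turned 3, 1, 20 and 10 of them. The level used by the marker setting is the median of 17 markers on each array, and the marker at that median differs between arrays. It was Col1a1 (3.13) in WT and Col6a1 (1.85) in KO at 0 h, and Col5a1 (3.36) and Col1a1 (2.96) at 24 h. The 1.28 thus sets different markers against each other. At 0 h Col1a1 itself differed by -0.26 and Col6a1 by -1.80. A second marker setting, chosen after seeing the data, subtracts the median of the markers' own differences. Those medians were -0.47 at 0 h, -0.12 at 24 h, 0.43 in WT, 0.79 in KO and 0.19 for the difference of changes. That shift is the smaller of both except over time in WT. At 0 h it turned the members' median to 0.33, while Cdc6 (-0.77), Ccnd1 (-0.64) and Tyms (-0.58) stayed below 0. A smaller value of either sign is therefore a position on the 75th percentile scale, and differences between members within a comparison are the same on the percentile and marker scales by construction.

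At 0 h the replication genes read lower in KO than in WT, and the mitosis genes lay near 0. The median KO minus WT difference was -0.32 over the 18 replication genes and -0.06 over the 26 measured mitosis genes. Of the replication genes 15 lay below 0, among them all 6 subunits of the Mcm helicase (-0.98 to -0.30). Among genes with a mean level of at least -4, 44.0% lay above 0, so most of those also read lower in KO. Cdc6, Ccnd1 and Tyms were called lower, and no member was called higher. Those 3 of 48 (6.25%) stand beside 4.07% of all genes called lower and 9.33% called higher, or 4.88% and 5.95% of genes with a mean level of at least -4. The count of members called lower is therefore near the background. All genes measured had a median of 0.06 and the genes at or above -4 one of -0.07, against -0.13 for the members. On the same pair of arrays the mast cell markers differed by a median of 0.90 and the fibroblast markers by -0.47. Scaled to the level of the fibroblast markers the members' median turned to 1.15, with all genes at 1.34. Scaled by the markers' median change it was 0.33, with all genes at 0.52.

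At 24 h the direction was the other way, and the mitosis genes led. The median difference was 0.38 for mitosis, with 23 of 26 genes above 0, and 0.22 for replication, with 11 of 18. Ccnb2 was the 1 member called higher (2.08%), beside 5.76% of all genes, or 6.28% of genes at or above -4. None was called lower, beside 12.3% and 6.55%. Few members passed 2-fold, and the shift is one of many small differences: 37 of 48 lay above 0, against 48.9% of genes at or above -4. The median of all genes was -0.09 at this time and that of the members 0.27. The mast cell markers differed by a median of 0.41 here and the fibroblast markers by -0.12.

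In WT the 48 genes read close to level over the 24 h. Their median change was 0.12, within a span from -0.72 for Cdc6 to 0.94 for Rfc4, and none was called in either direction, where 15.8% of all genes were called higher and 5.57% lower (4.35% and 6.52% at or above -4). The interquartile range of the change was 0.24 over the members and 0.57 over the genes at or above -4. All genes measured moved by a median of 0.28, and 7 of the 48 members lay above that. The sign of the members' median depends on the scale, since quantile normalization gave -0.10 and scaling to the fibroblast markers -0.11.

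In KO nearly every member read higher at 24 h. The median change was 0.58, with 0.63 for replication, where all 18 genes lay above 0, and 0.49 for mitosis, where 24 of 26 did. Mki67 and Cenpf were the exceptions. Called higher were Mcm2, Ccnd1, Ccne1 and Cdc25b, 4 of 48 (8.33%), and none was called lower. Of all genes 9.48% were called higher and 10.9% lower, and of those at or above -4, 10.4% and 9.75%, so the count itself is near the background. The median of all genes was 0.23, and 40 of 48 members lay above it. Genes at or above -4 had a median of 0.32, and 69.3% of them lay above 0. Scaled to the level of the fibroblast markers the members' median became -0.53 and that of all genes -0.89. Subtracting the markers' own median change of 0.79 instead also put the members' median below 0, so the sign of the change rests on the scale. The gap between members and all genes is the same on the percentile and marker scales by construction. Across this pair of arrays the mast cell markers had a median change of -8.57 and the fibroblast markers one of 0.79, and in WT of -8.14 and 0.43.

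The change in KO minus the change in WT was above 0 for 40 of 48 members, 15 of 18 in replication and 23 of 26 in mitosis, with an SE of 0.29 for most genes. The median was 0.51 (0.56 for replication, 0.44 for mitosis), beside 0.03 for all genes and 0.11 for those at or above -4, of which 59.2% lay above 0. Mcm2, Cdc6, Ccnd1 and Ccne1 were called higher, 4 of 48 (8.33%), against 4.72% of all genes and 5.06% of those at or above -4. None was called lower, against 13.3% and 6.06%. Scaled to the level of the fibroblast markers the members' median turned to -0.37, with all genes at -0.86. Taken gene by gene, the markers' own difference of changes had a median of 0.19. Subtracting that instead leaves the members' median above 0, so its sign rests on how the markers are used. The 4 arrays enter both genotype and both time comparisons, so these are views of the same 4 readings and do not support each other. With 1 array a group, an array's own departure and a response of that group cannot be told apart.

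**Figure D2:**
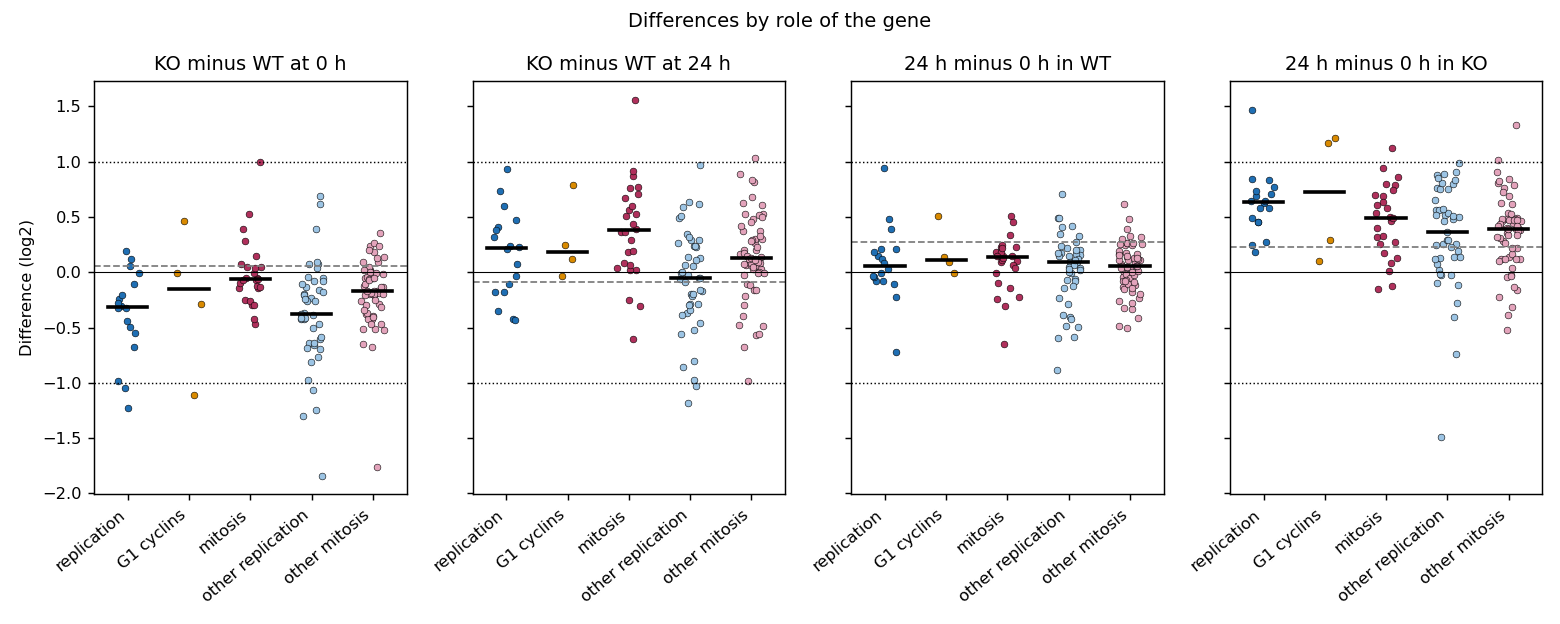
Log2 differences of each measured gene, by role (replication, G1 cyclins, mitosis, and the other replication and mitosis genes), with 1 panel for each comparison, a point for each gene and a bar at the median. Dotted lines mark 2-fold and the dashed line the median of all measured genes. Replication genes have a median of -0.32 at 0 h, and the change with time has a median of 0.58 over the members in KO and 0.12 in WT.

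The replication and mitosis classes stayed close to each other. The replication median minus the mitosis median was -0.25 at 0 h, -0.16 at 24 h, -0.08 for the change in WT and 0.14 for the change in KO. Scaling an array by a constant shifts both classes alike, and over all settings tried the gap at 0 h ran from -0.26 to -0.17 and that of the change in KO from 0.07 to 0.15. KO at 24 h was the array with the highest level for 34 of the 48 members (70.8%), against 37.0% of genes at or above -4. These were 21 mitosis genes, 10 replication genes and 3 G1 cyclins. The other replication genes described below did not share this: it was highest for 13 of 45 (28.9%), and for 38 of 60 other mitosis genes (63.3%). KO at 0 h was the array with the lowest level for 30 members (62.5%), 15 of them replication genes, against 45.9%. With quantile normalization KO at 24 h was highest for 27 members (56.2%, against 33.4%). KO at 0 h was then lowest for 23 (47.9%), close to the 40.9% of genes at or above -4, so little of that excess remained. Scaled to the fibroblast markers KO at 0 h held the highest level of 44 members, as it did for 89.6% of the genes at or above -4.

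**Figure D3:**
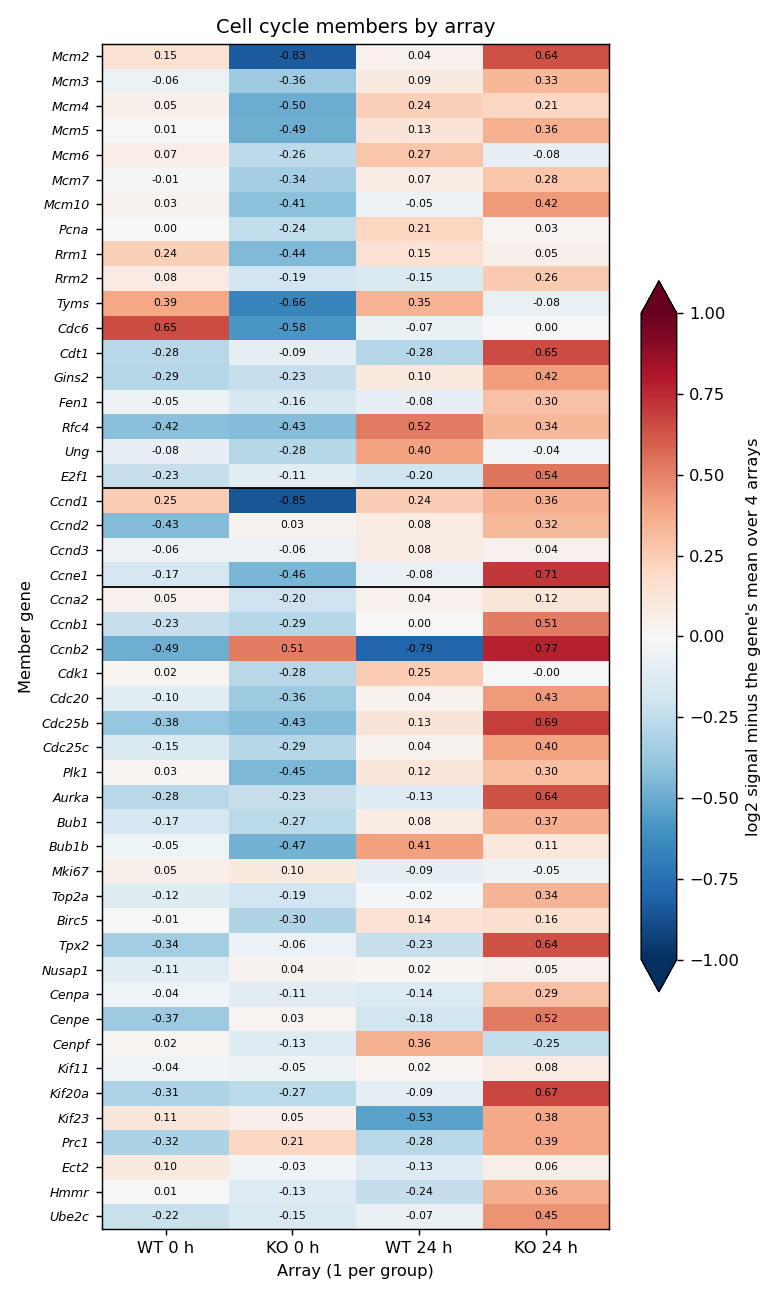
Heat map of the members, with 1 row for each gene and 1 column for each array, coloured by the normalized log2 signal minus the gene's mean over the 4 arrays. KO at 24 h is the highest array for 34 of 48 measured members and KO at 0 h the lowest for 30.

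The Mcm2 to Mcm7 proteins form the ring-shaped helicase that unwinds DNA at the fork. Mcm2 moved the most of the 6. It read 1.84 in WT and 0.86 in KO at 0 h, and 1.73 and 2.32 at 24 h (probe at chr6:88833619-88833678, mm9). KO was thus the lowest array at 0 h and the highest at 24 h, with WT flat between them. The difference was -0.98 at 0 h and 0.59 at 24 h, the change in KO 1.47 and in WT -0.11, each with an SE of 0.20. Mcm3, Mcm4, Mcm5 and Mcm7 followed with smaller values, from -0.55 to -0.30 at 0 h and from 0.62 to 0.84 for the change in KO. Mcm6 did not share that change, at 0.18 in KO and 0.21 in WT. Genes of 1 complex thus ranged from 0.18 to 1.47 in their change in KO. A second Mcm3 probe gave 0.21 for that change, below the 0.69 of the first.

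Cdc6, Cdt1, Mcm10 and Gins2 license and fire origins. Cdc6, the loader of the helicase, read -1.06 in WT and -2.29 in KO at 0 h, and -1.77 and -1.70 at 24 h (chr11:98782986-98783045, mm9). The genotypes were apart at 0 h, by -1.23, and level at 24 h, by 0.07. A second Cdc6 probe had the gap at 0 h (-1.42) and kept it at 24 h (-1.20), so the difference of differences was 1.30 by the first probe and 0.22 by the second. Cdt1, the partner of Cdc6 in loading, read 3.53 and 3.72 at 0 h in WT and KO, and 3.53 and 4.46 at 24 h. Its KO array at 24 h stood above the other 3, by 0.94 over WT. Mcm10 changed by 0.83 in KO and -0.08 in WT, whereas Gins2, a subunit of the GINS complex of the active helicase, was higher at 24 h in both, by 0.65 and 0.39.

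Nucleotide supply is served by Rrm1 and Rrm2, the subunits of ribonucleotide reductase, and by Tyms, which makes thymidylate. Tyms read -1.43 in WT and -2.48 in KO at 0 h, and -1.47 and -1.90 at 24 h (chr5:30385578-30385637, mm9). It was lower in KO at both times, with differences of -1.05 and -0.43. Rrm1 had differences of -0.67 and -0.10, and Rrm2 of -0.28 and 0.41. All 3 read higher at 24 h in KO, by 0.45 to 0.58, while their changes in WT lay between -0.23 and -0.04.

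At the fork, Pcna is the sliding clamp, Rfc4 a subunit of its loader, Fen1 the nuclease that trims Okazaki fragments and Ung the glycosylase that removes uracil. Rfc4 read 2.05 and 2.03 at 0 h in WT and KO, and 2.99 and 2.80 at 24 h. It was higher at 24 h in both genotypes, by 0.94 and 0.77, and its second probe gave 0.68 and 0.86. Pcna had changes of 0.21 and 0.27, close to each other, and Fen1 of -0.03 in WT and 0.46 in KO. Ung read 5.21 and 5.01 at 0 h in WT and KO, and 5.69 and 5.25 at 24 h, with WT at 24 h highest. Its probe holds a TG repeat over 34 of its 60 bases, and leaving Ung out moved no count or median of the members beyond its limit. Pcna, Rfc4, Ung, Mcm6 and Gins2 are the replication genes whose change in KO lay within 1 SE (0.29) of that in WT. E2f1, the factor upstream of many of these genes, differed by 0.12 at 0 h and 0.74 at 24 h, with a change of 0.64 in KO and 0.03 in WT.

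Among the cyclins of G1, Ccnd1 and Ccne1 moved and Ccnd2 and Ccnd3 less so. Ccnd1, the D cyclin induced by growth factors, read 4.90 in WT and 3.80 in KO at 0 h, and 4.90 and 5.01 at 24 h (chr7:152116202-152116261, mm9). One array, KO at 0 h, stood below the other 3, with a difference of -1.11 from WT, and the change in KO was 1.22. Ccne1, which drives entry into S phase, read 3.42 and 3.13 at 0 h in WT and KO, and 3.51 and 4.30 at 24 h (chr7:38882937-38882960, mm9). Here it was KO at 24 h that stood above the other 3, by 0.79 over WT, with a change in KO of 1.17 and of 1.42 by a second probe. Ccnd2 read 3.01 and 3.47 at 0 h in WT and KO, and 3.52 and 3.76 at 24 h, lowest in WT at 0 h. Ccnd3 spanned 0.14 over the 4 arrays, less than 1 SE of a difference, and its second probe changed by 0.57 in KO.

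**Figure D4:**
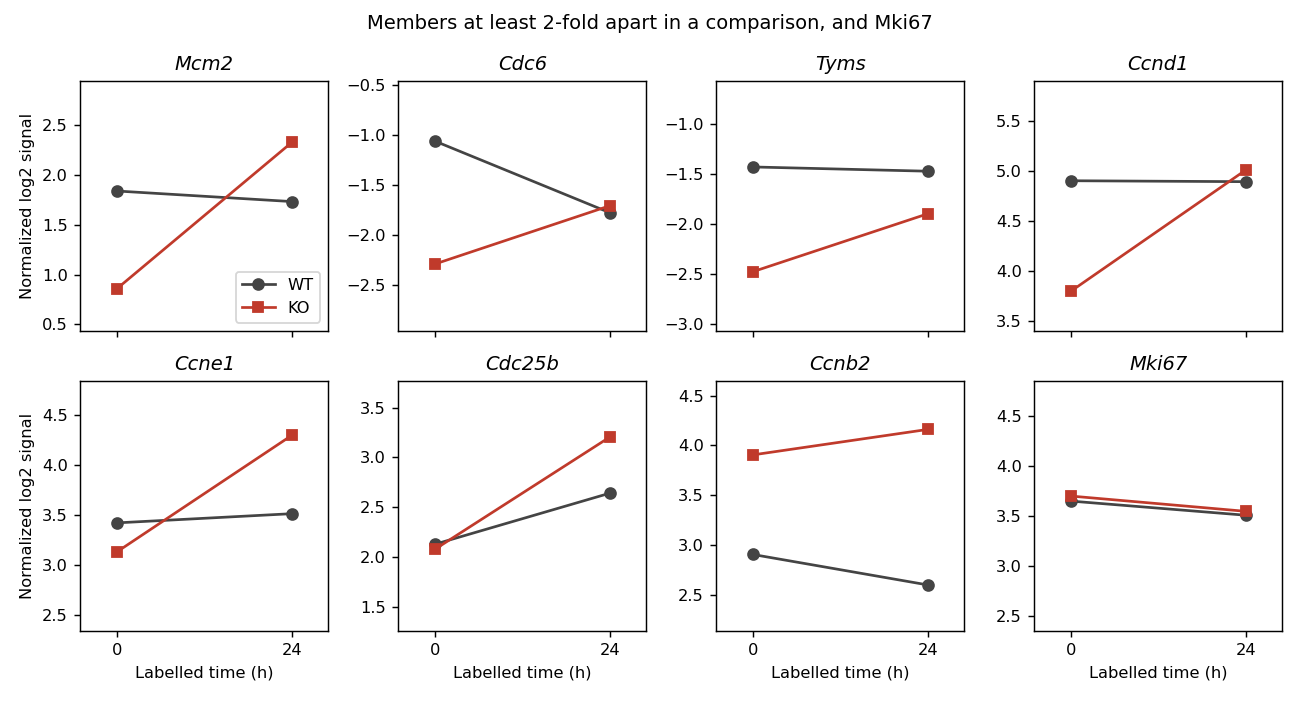
Normalized log2 signal of the 7 members called in a genotype or time comparison, and of Mki67, at 0 h and 24 h (x axis, hours) in WT and KO, 1 array a point, each panel spanning the same log2 height. Mcm2 runs from 0.86 to 2.32 in KO and from 1.84 to 1.73 in WT, and Ccnb2 is higher in KO at both times.

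Entry into mitosis is driven by Cdk1 with the A and B cyclins and opened by the Cdc25 phosphatases. Ccnb2, cyclin B2, read 2.91 in WT and 3.91 in KO at 0 h, and 2.60 and 4.16 at 24 h (chr9:70255671-70255730, mm9). Both KO arrays were above both WT arrays, by 1.00 at 0 h, just under the 2-fold line before rounding, and by 1.56 at 24 h, a 2.94-fold difference. It was the highest member in both genotype comparisons, and its gap at 24 h stayed between 1.42 and 1.95 under the scalings tried. Ccnb1, cyclin B1, did not share the gap at 0 h (-0.06) and differed by 0.51 at 24 h, with 0.88 and 0.73 by its other probes. Ccna2 differed by -0.25 and 0.08, and Cdk1 by -0.30 and -0.25. The other Cdk1 probes, dim at levels from -6.11 to -4.77, disagreed with each other in sign at 24 h (-0.71 and 0.43).

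Cdc25b read 2.13 and 2.08 at 0 h in WT and KO, and 2.64 and 3.21 at 24 h (chr2:131023911-131023970, mm9). It was higher at 24 h in both genotypes, by 0.51 in WT and 1.13 in KO, the largest increase of a mitosis gene in either. Cdc25c had the same order at lower size, 0.18 and 0.69. Cdc20, the activator of the anaphase-promoting complex, and Ube2c, its ubiquitin-conjugating enzyme, changed by 0.79 and 0.61 in KO against 0.14 and 0.15 in WT.

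The mitotic kinases and checkpoint proteins were of a similar pattern. Plk1 changed by 0.75 in KO and 0.09 in WT, and Aurka, the centrosomal Aurora kinase, by 0.86 and 0.15. Bub1 changed by 0.64 and 0.25. Bub1b, which holds back the anaphase-promoting complex, was closer between genotypes, at 0.58 and 0.46. At 0 h Plk1 and Bub1b differed by -0.47 and -0.43 between genotypes, and Aurka by 0.05.

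The spindle and cytokinesis genes split into those higher in KO at 24 h and those that stood still. Kif23, a motor of the midbody, read 1.39 and 1.33 at 0 h in WT and KO, and 0.75 and 1.66 at 24 h. WT at 24 h was the low array, and the difference there was 0.91. A second Kif23 probe disagreed: its changes were -2.50 in WT and -2.66 in KO, with the low values on the arrays where the mast cell markers were low. Prc1, which bundles the midzone microtubules, read 3.46 in WT and 3.98 in KO at 0 h, and 3.49 and 4.16 at 24 h. Like Ccnb2 it was higher in KO at both times, by 0.53 and 0.67, and flat with time. Tpx2 (0.28 and 0.87) and Cenpe (0.39 and 0.70) were also higher in KO at both times, and Kif20a (0.04 and 0.76) and Hmmr (-0.14 and 0.60) at 24 h. Kif11, the motor that separates the spindle poles, Nusap1 and Ect2 spanned 0.13, 0.15 and 0.23 over the arrays. Nusap1 read 1.46 and 1.60 at 0 h in WT and KO, and 1.59 and 1.61 at 24 h. A second Ect2 probe had changes of -1.75 in WT and -1.10 in KO, and a second Tpx2 probe differed by -0.24 and 0.06 between genotypes, unlike the first probes of these genes.

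Mki67, which encodes the Ki-67 antigen used to score proliferating cells, did not follow most of the members. It was 1 of 8 members, of 48 measured, whose change in KO minus that in WT lay below 0. It read 3.65 in WT and 3.70 in KO at 0 h, and 3.51 and 3.55 at 24 h (chr7:142881591-142881650, mm9). Genotypes differed by 0.05 and 0.04, and its changes were -0.14 in WT and -0.15 in KO, all within 1 SE. Its second probe was as flat between genotypes, at 2.88, 2.83, 2.58 and 2.57. Top2a, the topoisomerase of condensing chromosomes, changed by 0.53 in KO and 0.10 in WT, Birc5 (survivin) by 0.46 and 0.15, and Cenpa, the centromeric histone, by 0.40 and -0.10. Another Birc5 probe read lower in KO at both times, with differences of -1.14 and -0.97, where the first gave -0.29 and 0.02. Cenpf read -5.26 and -5.40 at 0 h in WT and KO, and -4.92 and -5.53 at 24 h, a dim probe though well above background. Its difference at 24 h, -0.61 with an SE of 0.28, was the lowest of the members and became 0.09 with quantile normalization.

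**Figure D5:**
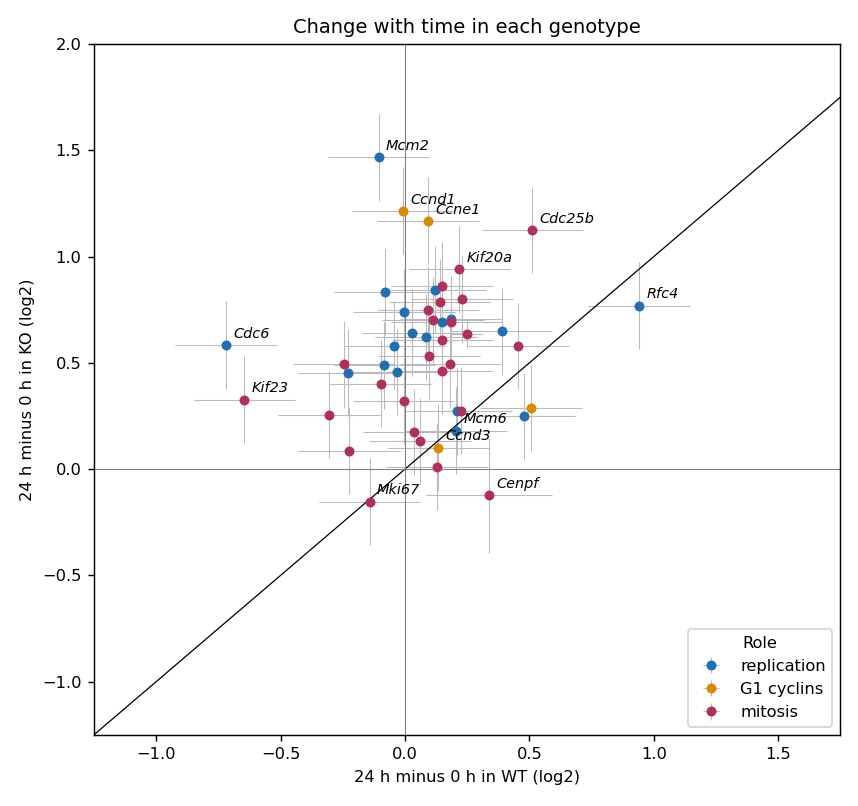
Change from 0 h to 24 h in KO (y axis, log2) against that in WT (x axis, log2) for each measured member, coloured by role, with bars of 1 SE from the spot error and a diagonal where both changes are equal. Changes in WT run from -0.72 to 0.94 with a median of 0.12, and 46 of 48 members lie above 0 in KO.

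Few members ranged widely over the arrays. The difference between a gene's highest and lowest array had a median of 0.70 over the 48 members, against 0.81 over 13800 genes at or above -4. It reached 2-fold in 7 members (14.6%) and in 36.3% of those genes. The 7 were Ccnb2, Mcm2, Cdc6, Ccnd1, Ccne1, Cdc25b and Tyms.

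Other genes of both classes, 45 for replication and 60 for mitosis, were all measured. At 0 h their medians lay below those of the members, and over time in KO they were smaller. At 0 h the other replication genes had a median of -0.37, with 38 of 45 below 0 and 4 called lower (8.89%), beside 4.07% of all genes and 4.88% of those at or above -4. Of the latter 44.0% lay above 0. Prim2, a primase subunit, was lowest at -1.84, followed by Rfc3 (-1.30) and Gins3 (-1.25). Blm, a helicase of repair, was highest at 0.69. The other mitosis genes had a median of -0.17 and 1 called lower (1.67%), Nuf2 of the kinetochore (-1.76).

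At 24 h the medians of these other genes were -0.05 for replication and 0.13 for mitosis. Above 0 lay 42.2% of the replication and 73.3% of the mitosis list, against 48.9% of genes at or above -4. Prim2 (-1.18) and Dbf4, the activator of the Cdc7 kinase (-1.03), were called lower. They are 4.44% of the replication list, against 12.3% of all genes and 6.55% of those at or above -4. Mybl2 was called higher at 1.03, 1.67% of the mitosis list against 5.76% and 6.28%, and Foxm1 came next at 0.88. Mybl2 read 2.74 and 2.69 at 0 h in WT and KO, and 2.67 and 3.70 at 24 h. Foxm1 read 1.02 and 0.82 at 0 h, and 0.78 and 1.66 at 24 h. For both of these activators of mitotic genes the KO array at 24 h stood above the other 3.

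None of these other genes was called over time in WT, where 15.8% of all genes were called higher and 5.57% lower. Of genes at or above -4, 4.35% and 6.52% were. The medians of the other genes in WT were 0.09 for replication and 0.06 for mitosis. In KO they were 0.36 for replication and 0.39 for mitosis. Nuf2 (1.33) and Mybl2 (1.01) were called higher, 3.33% of the mitosis list against 9.48% of all genes and 10.4% of those at or above -4. Rfc2, a clamp loader subunit, was called lower (-1.49), 2.22% of the replication list against 10.9% and 9.75%. The change in KO minus that in WT was above 0 for 38 of 45 and 52 of 60 genes, with medians of 0.31 and 0.27, against 59.2% of genes at or above -4. Pola2 (1.27), Nuf2 (1.19), Foxm1 and Mybl2 (1.08 each) were among those called higher. Those called were 4.44% of the replication and 6.67% of the mitosis list, against 4.72% of all genes and 5.06% at or above -4. The marker scale lowers each change in KO by the same amount as for the members.

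By promoter letters, members with CHR letters (18 genes) had a median of -0.09 at 0 h and 0.38 at 24 h, and those without (22 genes) of -0.26 and 0.22. Their median changes were 0.05 and 0.13 in WT, and 0.43 and 0.60 in KO. Of the 18 genes with CHR letters 16 are mitosis genes, so this split largely repeats that by class. A part of the letters apart from class was not tested. The 6 replication genes with an E2F site had medians of -0.33 at 0 h, 0.22 at 24 h and 0.66 for the change in KO, near those of all replication genes. Mcm2, with CHR and no E2F letters, had the largest change in KO, and Mcm6, with 2 E2F matches, the smallest of the helicase. Mcm3, also with 2 E2F matches, changed by 0.69 in KO. Mcm5 and Mcm7, which hold an E2F match too, changed by 0.84 and 0.62, and Mcm4 had no window. A link between letters and change was not tested.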

How the data were processed

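Single-channel (Cy3) Agilent arrays of 4 groups, all on 1 slide, were analysed from the authors' deposited scanner files and value table. Per the file headers, the spot intensity was extracted with Feature Extraction 12.1.1.1, background-subtracted with spatial detrending and not scaled between arrays, and the probes are placed on mm9. The deposited value table holds a ratio, the processed signal over that array's 75th percentile. Per the labels' protocols, 200 ng of RNA was labelled.

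Control spots and outlier spots were left out, and the processed signal went to log2. From it was taken the 75th percentile of the 43020 non-control spots of the same array. Between 62.1% and 72.7% of spots were well above background, and the number of arrays limits the precision. A difference was measured for a gene where each array in it read the probe well above background and unsaturated. With 1 array a group no test was run. Python 3.11.15, R 4.3.3 and limma 3.58.1 were used, and the steps were tested on simulated data.

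The 50 genes and the other gene lists were chosen with earlier results of these data known. Values on all 4 arrays are given for members called at least 2-fold apart and for the 3 highest and 3 lowest members of each comparison, and of the other lists up to 3 genes at each end are named. Foxm1 and Mybl2 fall under that rule. Alternatives were quantile normalization, normexp (offset 50) with quantile normalization, the value table, fibroblast-marker scaling, filters on dim probes and the mean of a gene's probes.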

Additional observations from a re-analysis of the deposited data

Results flagged for a closer look

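For 3 members called in the difference of changes, WT and KO moved in opposite directions between 0 h and 24 h. The change in KO minus that in WT was 1.57 for Mcm2 (1.47 in KO, -0.11 in WT), 1.30 for Cdc6 (0.58 in KO, -0.72 in WT) and 1.22 for Ccnd1 (1.22 in KO, -0.01 in WT). The WT changes of Mcm2 and Ccnd1 are smaller than 1 SE, and the second Cdc6 probe gave 0.22 for the difference. With 1 array a group the difference between the genotypes was not tested.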

How the results depend on the processing

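No paired analysis was possible because each group has 1 array. Of 375 comparisons of a value with its alternative, 301 stayed within their error or count limit, 71 moved and 3 reversed. Leaving out Ung (chosen after seeing the data), dropping the filter on dim probes and the authors' value table moved none.

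Scaled to the level of the fibroblast markers, KO minus WT at 0 h had a median of 1.15 (replication 0.97, mitosis 1.22), with 32 members called higher and 0 lower, and Tyms (0.24), Cdc6 (0.05) and Ccnd1 (0.18) reversed. At 24 h the medians were 0.66, 0.62 and 0.78, with 10 called higher. The change in WT was -0.11 (-0.17 and -0.09), that in KO -0.53 (-0.48 and -0.62) with 0 higher and 5 lower, and the difference of changes -0.37 (-0.33 and -0.44) with 0 higher and 5 lower. Under this scaling the median of all genes shifted to 1.34, 0.30, 0.05, -0.89 and -0.86 in those 5 comparisons. At 0 h that median is itself past the 2-fold line, so most genes were higher by 2-fold there. Shares of all genes called are not given for the settings of this section, so its counts say nothing particular to the members. Scaled by the median change of the same markers, a setting chosen after seeing the data, 0 h gave 0.33 (0.15 and 0.40) with 1 higher and 0 lower, 24 h 3 higher, WT -0.31 (-0.37 and -0.30) with 2 lower, and KO -0.21 (-0.16 and -0.30) with 0 higher. This setting takes 0.19 from each difference of changes, so the members' median there stayed above 0.

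Quantile normalization gave 1 member higher at 0 h, a WT change of -0.10 and a KO change of 0.32 (replication 0.38) with 1 called higher. Normexp gave 1 higher at 0 h and a KO change of 0.32 (replication 0.36) with 1 called higher. The stricter filter left 1 called lower at 0 h. The mean of probes called 1 lower in WT and 1 lower in KO over time. The gap between the replication and mitosis medians kept its sign in every setting tried, which scaling by a constant cannot alter. Signal over background limits Cenpf, Cdc25c, Tyms and Cdc6, and left Ccne2 and Aurkb unmeasured.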
